A study of Mus musculus with 8 samples.

Results

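ADAMTS proteases are secreted zinc metalloproteases that cut the matrix around cells, and ADAMTS-like proteins share their thrombospondin repeats but lack the protease domain. Described here are 7 proteases (ADAMTS1, ADAMTS2, ADAMTS4, ADAMTS5, ADAMTS6, ADAMTS9 and ADAMTS10) and the ADAMTS-like protein ADAMTSL2 in mouse astrocytes. They are 8 of the 13937 genes in the deposited count table, and all 8 passed the filter on low counts that left 13509 genes for testing. They were picked by name with their levels under TGF-β already known, so the TGF-β values of these 8 genes are a description without a test. The comparisons between genotypes were tested, as were the genes of related lists, although those lists too were drawn up with earlier results known.

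The RNA came from primary cultures of brain astrocytes from C57BL/6 pups aged 1 day, either wild type (WT) or RGC-32 knockout (RGC-32 KO, or KO), which lack the cell cycle regulator RGC-32 (gene Rgcc). Cultures grew for weeks in serum with the meninges removed and the loosely attached cells shaken off, and all 4 groups were starved of serum before treatment. Cells of each genotype were untreated (control) or kept for 24 h with TGF-β, 10 ng/ml, and the 2 knockout groups are called KO control and KO TGF-β. Each group has 2 biological replicates, so there are 8 libraries. The sources do not say whether a replicate is 1 pup or a pool, and the p-values measure the spread between these libraries.

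In the brain the proteoglycans versican, brevican, neurocan and aggrecan, together called hyalectans, bind hyaluronan between cells, and ADAMTS1, ADAMTS4, ADAMTS5 and ADAMTS9 cut them. ADAMTS2 removes the amino-terminal propeptide of fibrillar procollagens. ADAMTS6 and ADAMTS10 are close relatives linked to fibrillin microfibrils, the fibres that hold latent TGF-β in the matrix, and ADAMTSL2 binds fibrillin and a latent TGF-β binding protein.

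The part of the coding sequence that makes a protease separates the 7 enzymes from ADAMTSL2, so it is shown first. It is the zinc-binding signature, 12 codons with 3 histidine codons (in capitals) whose residues hold the zinc ion, followed here to the aspartate codon that ends it. A search of the translated GENCODE release M21 transcripts for this pattern, with glycine or asparagine allowed as residue 8, found it 1 time in each of the 7 proteases and 0 times in Adamtsl2. The sequences run 5′ to 3′ on the transcript.

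Adamts1: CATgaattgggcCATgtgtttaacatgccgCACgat
Adamts4: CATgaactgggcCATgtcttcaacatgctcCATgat
Adamts9: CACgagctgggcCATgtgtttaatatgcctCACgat
Adamts5: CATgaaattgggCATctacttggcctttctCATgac
Adamts2: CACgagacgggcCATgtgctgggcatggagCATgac
Adamts6: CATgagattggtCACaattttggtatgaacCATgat
Adamts10: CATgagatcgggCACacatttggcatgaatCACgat

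Adamts1, Adamts4 and Adamts9 carry an asparagine codon at position 8, and Adamts5, Adamts2, Adamts6 and Adamts10 a glycine codon. Adamts1 and Adamts9 encode the same 12 of 12 residues with 31 of 36 bases alike, and Adamts1 and Adamts4 share 11 of 12 residues. Adamts6 and Adamts10 share 11 of 12 residues and 29 of 36 bases. Adamts5 shares only 6 of 12 residues with each of Adamts1, Adamts4 and Adamts9, although all 4 enzymes cut hyalectans. The search pattern fixes the histidines, the glutamate after the first of them and the final aspartate, so every pair shares these residues by construction.

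RefSeq promoter sequences (GRCm38.p6) were at hand for 4 of the 8 genes, Adamts1, Adamts2, Adamts9 and Adamtsl2. The 250 bases before the start site are printed for Adamtsl2 and Adamts1. Sign aside, these had the largest and the smallest change under TGF-β among these 4. Capitals mark a TATAAA motif, the core of a TATA box.

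Adamtsl2, chr2:27079129-27079378, plus strand: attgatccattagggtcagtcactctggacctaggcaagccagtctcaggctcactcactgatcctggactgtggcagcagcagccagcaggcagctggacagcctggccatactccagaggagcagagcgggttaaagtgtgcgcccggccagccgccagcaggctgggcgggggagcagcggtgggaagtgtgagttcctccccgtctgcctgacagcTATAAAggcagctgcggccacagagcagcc
Adamts1, chr16:85803114-85803363, minus strand: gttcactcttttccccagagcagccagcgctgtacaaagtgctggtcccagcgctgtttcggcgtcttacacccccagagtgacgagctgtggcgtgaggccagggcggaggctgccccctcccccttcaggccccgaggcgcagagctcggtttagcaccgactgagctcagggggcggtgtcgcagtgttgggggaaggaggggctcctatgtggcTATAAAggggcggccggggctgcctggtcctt

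TATAAA begins 30 bases before the start of Adamtsl2 and 32 bases before that of Adamts1, and a search of both strands found it in 6.59% of 10550 promoters of tested genes. Neither Adamts2 nor Adamts9 holds it. The SMAD elements GTCTAGAC and CAGACA, the AP-1 element TGANTCA and the TEAD element GGAATG were not found on either strand in any of the 4 windows. Among promoters of tested genes these letters occur in 0.19%, 13.5%, 4.59% and 10.8%. Promoter GC content was 62.8% for Adamtsl2, 65.6% for Adamts1, 71.2% for Adamts9 and 78% for Adamts2.

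Libraries held 14920561 to 18956038 counts on genes. Rgcc, the targeted gene, had 5.16 and 5.61 CPM (read counts scaled to a common library total, with TMM factors) in WT control and 11.9 and 23.1 in WT TGF-β, against 3.89 and 1.66 in untreated knockout cells and 4.29 and 1.72 after TGF-β. The genotypes did not overlap for Rgcc at either condition, where 32.8% (control) and 46.3% (TGF-β) of all genes did not. The KO libraries kept 26 to 64 Rgcc counts each. Rgcc itself did not pass the threshold given below between genotypes. Its log2 difference of WT from KO was 0.97 in controls (adjusted p = 0.78) and 2.54 under TGF-β (adjusted p = 0.133, edgeR). Of genes known to respond to TGF-β, Smad7, Skil and Ctgf passed the threshold upwards in both genotypes and Tgfbi did not (log2 fold change 0.67 in WT with adjusted p = 0.05 after rounding, and 0.47 in KO with adjusted p = 0.145, edgeR). The threshold throughout is a log2 fold change of at least 0.6 in size with an adjusted p under 0.05 by edgeR's quasi-likelihood test. All 10 astrocyte markers were detected, with Gfap at 1200 to 2650 CPM. Markers of other cells were present too. The 9 microglial markers summed to 822 to 1140 CPM, with all 9 detected, and the 9 tested fibroblast markers to 481 to 649, led by Dcn at 193 to 332. Of 8 endothelial markers Cldn5, Emcn and Tie1 had no row in the table, and the other 5 summed to 99.3 to 127 CPM in controls and 66.9 to 80 under TGF-β, led by Cdh5 (26.5 to 76.9), with Pecam1 at 0.737 to 1.49. Of 7 neuronal markers Rbfox3 and Snap25 had no row, and the other 5 summed to at most 365 CPM in controls and to 393 to 425 under TGF-β, led by Map2 (183 to 276) and Stmn2 (75.2 to 107). The part of these sums in the results was not tested.

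**Figure D1:**
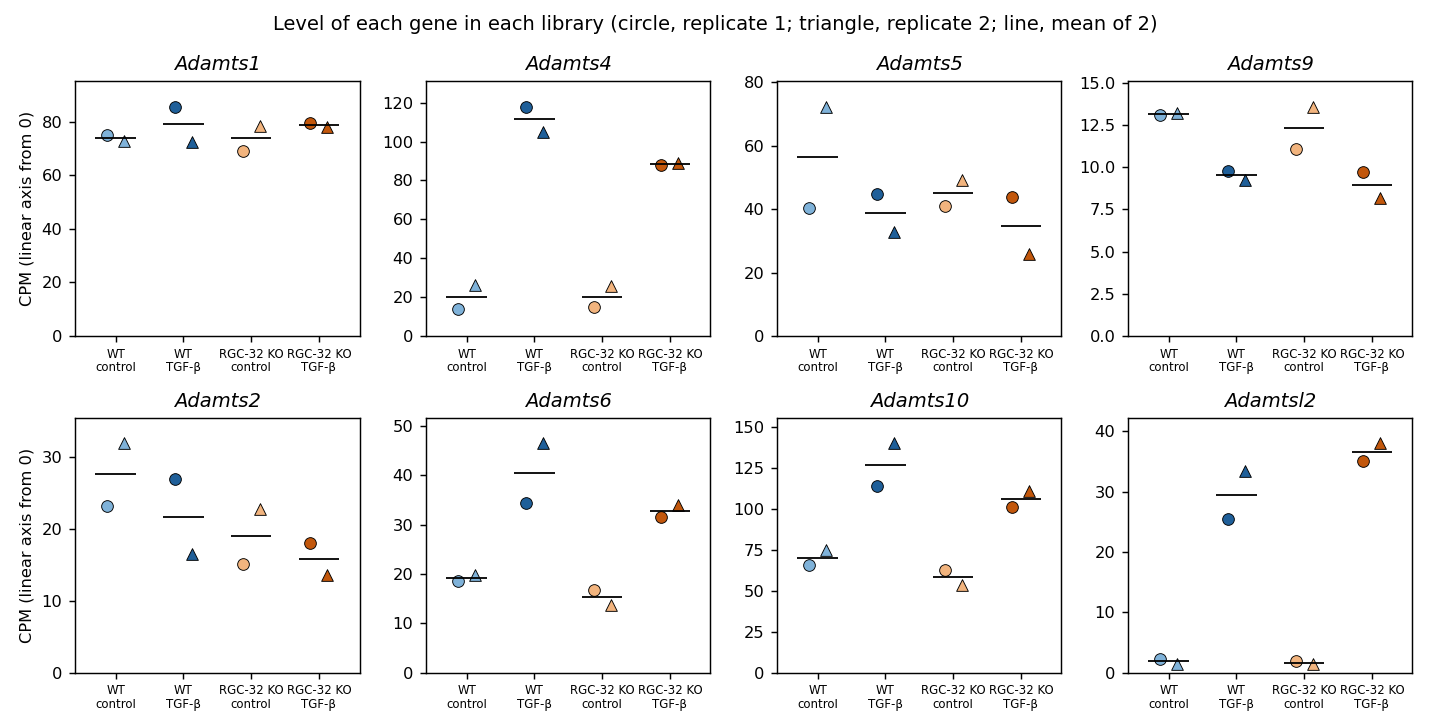
Level of the 8 genes in each of the 8 libraries, in CPM on linear axes from 0. Circles are replicate 1, triangles replicate 2 and lines the mean of 2. Adamts4, Adamts6, Adamts10 and Adamtsl2 are higher in every TGF-β library than in every control library of either genotype. Adamts1 stays between 69.1 and 85.7 CPM throughout.

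Of the hyalectan-cutting proteases named above, Adamts4 alone was clearly higher under TGF-β. Adamts4, whose protein is also called aggrecanase-1, lies at chr1:171250421-171260637 on the plus strand (GRCm38) in 9 exons. Its level was 13.8 and 26.4 CPM in untreated WT cells and 118 and 105 after TGF-β, with 14.9 and 25.5 in untreated knockout cells and 87.8 and 89.2 after TGF-β. The TGF-β libraries lay far above all controls, and in both genotypes control replicate 2 was the higher of the pair. Its change on the log2 scale was 2.47 ± 0.29 (SE) in WT, which is 5.53-fold, and 2.13 ± 0.29 in KO, 4.37-fold, with n = 2 libraries a group.

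Adamts1 (chr16:85793827-85803113, minus strand, 9 exons) cuts versican and aggrecan. It had 75.1 and 72.9 CPM in untreated WT cells and 85.7 and 72.3 after TGF-β, with 69.1 and 78.6 in untreated knockout cells and 79.4 and 77.9 after TGF-β. Control and TGF-β libraries overlapped in both genotypes. Under TGF-β the log2 fold change was 0.10 ± 0.09 (WT) and 0.09 ± 0.09 (KO).

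Adamts5, the other main aggrecanase, lies near Adamts1 on chromosome 16 (chr16:85856173-85901828, minus strand, 8 exons). Its levels were 40.4 and 72.4 CPM in untreated WT cells and 44.8 and 32.7 after TGF-β, with 41.0 and 49.2 in untreated knockout cells and 43.7 and 25.8 after TGF-β. Controls and TGF-β libraries overlapped in both genotypes, and WT control replicate 2 stood highest. Its log2 fold change came to -0.54 ± 0.31 in WT and to -0.38 ± 0.32 in KO, and without WT control replicate 2 the WT value was -0.08.

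Adamts9 (chr6:92772699-92943492, minus strand, 40 exons) cuts versican and aggrecan and is a large member of the family, with 1931 residues against 845 for Adamts4. It had 13.1 and 13.2 CPM in WT control and 9.79 and 9.27 in WT TGF-β. In KO it had 11.1 and 13.6 CPM in control and 9.72 and 8.19 under TGF-β. Every control library lay above every TGF-β library, but the log2 fold changes, -0.46 ± 0.14 (WT) and -0.47 ± 0.14 (KO), were under the fold threshold. Exon bases of 2 genes on the other strand, A730049H05Rik and Gm15737, overlap it by 1381 and 424 bases, and neither was among the genes tested. The libraries were not stranded, so reads from such overlaps cannot be told apart.

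The procollagen N-proteinase Adamts2 (chr11:50602084-50807573, plus strand, 22 exons) is an enzyme that trims procollagen I. Its level was 23.2 and 31.9 CPM in untreated WT cells and 26.9 and 16.5 after TGF-β, with 15.1 and 22.8 in untreated knockout cells and 18.0 and 13.6 after TGF-β. Control and TGF-β libraries overlapped in both genotypes. As for Adamts5, replicate 2 was the higher of the controls and the lower of the TGF-β libraries in each genotype. WT cells gave a log2 fold change of -0.34 ± 0.28 and KO cells -0.27 ± 0.30.

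The microfibril-related pair Adamts6 and Adamts10 was higher under TGF-β to a similar, moderate degree. Adamts6 (chr13:104287835-104496695, plus strand, 25 exons) had 18.6 and 19.8 CPM in WT control and 34.4 and 46.5 in WT TGF-β. Untreated knockout cells had 16.8 and 13.8 CPM and treated ones 31.6 and 34.0. The log2 fold change of Adamts6 was 1.07 ± 0.15 for WT and 1.10 ± 0.16 for KO. Adamts10 (chr17:33524204-33553782, plus strand, 25 exons), which binds fibrillin-1, had 65.5 and 74.9 CPM in untreated WT cells and 114 and 140 after TGF-β, with 62.4 and 53.7 in untreated knockout cells and 101 and 111 after TGF-β. For both genes no TGF-β library overlapped a control library. Adamts10 differed by 0.85 ± 0.12 (WT) and 0.87 ± 0.12 (KO) on the log2 scale.

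Adamtsl2, a secreted glycoprotein of the microfibril with 957 residues and no protease signature, showed the largest difference of the 8. It lies at chr2:27079379-27108981 on the plus strand in 19 exons. It had 34 and 25 reads in the WT control libraries and 29 and 25 in the KO control libraries, against 461 and 522 after TGF-β in WT and 523 and 575 after TGF-β in KO. As CPM these are 2.19 and 1.49, 1.85 and 1.48, 25.5 and 33.4, and 35.0 and 38.0. The control libraries of both genotypes overlapped, and both KO TGF-β libraries lay above the WT TGF-β libraries. On the log2 scale the change was 4.0 ± 0.21 in WT, 16-fold, and 4.45 ± 0.21 in KO, 21.9-fold.

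**Figure D2:**
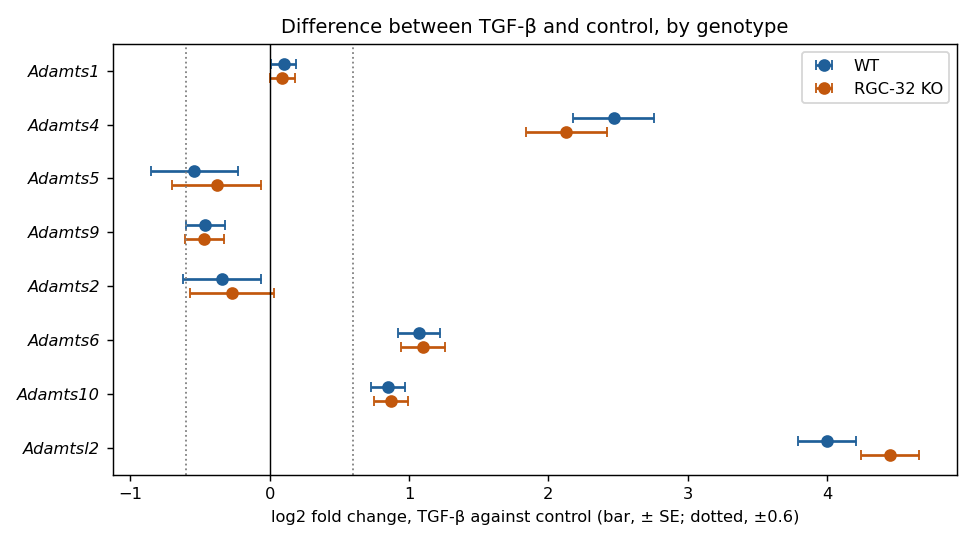
Log2 fold change of TGF-β against control for each of the 8 genes, in WT and RGC-32 KO. Points are estimates, bars ± SE and dotted lines the fold threshold of 0.6. Adamtsl2 is at 4.0 and 4.45 and Adamts4 at 2.47 and 2.13. Adamts5, Adamts9 and Adamts2 lie below 0.

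Adamts4, Adamts6, Adamts10 and Adamtsl2, 4 of the 8 genes, were past the threshold upwards in each genotype, and 0 were past it downwards. Of all 13509 genes 7.72% were past it upwards and 5.65% downwards in WT, and 6.61% and 4.93% in KO. Since the genes were picked with these values known, nothing is read from that share. Over the 8 genes the median was 0.47 (WT) and 0.48 (KO) on the log2 scale, against 0.00 over all tested genes in either genotype. With upper quartile scaling the counts over all genes turned from 1043 up and 763 down to 857 and 1055 in WT, and from 893 and 666 to 747 and 895 in KO, and the same number, 4 of the 8 genes, passed. Control and TGF-β libraries did not overlap for 5 of the 8 genes in each genotype, and for 69.1% (WT) and 67.3% (KO) of all genes.

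Marker genes of other cells moved with the same comparison. The 4 tested mural cell markers Pdgfrb, Rgs5, Anpep and Notch3 (of 7 listed; Kcnj8, Abcc9 and Higd1b had no row) summed to 207 and 208 CPM in untreated WT cells and 405 and 453 after TGF-β, with 172 and 177 in untreated knockout cells and 339 and 358 after TGF-β, and 3 of the 4 were past the threshold upwards in each genotype. The astrocyte sum was 4620 and 4850 CPM in untreated WT cells and 3700 and 3580 after TGF-β, with 5340 and 6000 in untreated knockout cells and 4380 and 4720 after TGF-β, so it was lower under TGF-β and lower in WT, with 0 of 10 genes past the threshold between genotypes. The fibroblast sum was 594 and 649, 499 and 552, 553 and 526, and 522 and 481 CPM in the same order. Its members went both ways, with 3 of 9 past the threshold upwards and 2 downwards in WT, and 3 and 1 in KO. The 4 tested ependymal markers, Foxj1 among them, summed to 340 and 398, 243 and 215, 364 and 404, and 261 and 273 CPM. All 4 were past the threshold downwards in WT, but only 1 in KO. Of the 5 tested endothelial markers 1 passed upwards and 1 downwards in WT, and 1 and 2 in KO. The part of these marker genes in the ADAMTS values was not tested. In bulk RNA a change in the number of cells of a type and a change in RNA per cell cannot be told apart.

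Levels of different genes can be compared only per transcript length, for which the deposited normalized values were used. Their unit is not stated. They were read as FPKM (fragment numbers divided by transcript length and by depth), since the submitters' notes name Cufflinks. Over 10576 genes with at least 100 counts in every library the ratio of CPM to this value rose with exon length. Spearman rho was 0.75 across genes, which are not independent. That shows scaling by length but cannot tell FPKM from another unit scaled by length. In WT control the order was Adamts1 at 12.8 ± 0.336 (SD, n = 2), Adamts10 at 11.5 ± 0.939, Adamts5 at 6.09 ± 2.42, Adamts2 at 3.04 ± 0.523, Adamts4 at 2.72 ± 1.05, Adamts6 at 2.12 ± 0.11, Adamts9 at 1.65 ± 0.0799 and Adamtsl2 at 0.432 ± 0.118 FPKM. Adamts2 and Adamts4 overlapped, as did Adamts4 and Adamts6, and the other neighbours did not. In KO control the same 3 genes led and Adamtsl2 was again last, at 0.418 ± 0.0856 FPKM, while Adamts4, Adamts2, Adamts6 and Adamts9 each overlapped their neighbour.

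The order under TGF-β was another. In WT TGF-β Adamts10 led at 18.7 ± 1.77 FPKM, followed by Adamts4 at 13.5 ± 2.63 and Adamts1 at 13.1 ± 1.46, which overlapped. Adamtsl2 came next at 5.69 ± 0.54, above Adamts6 at 4.31 ± 0.587 and Adamts5 at 3.92 ± 1.24, which overlapped, and Adamts2 at 2.20 ± 0.606 and Adamts9 at 1.17 ± 0.0766 were last. In KO TGF-β it was Adamts10 at 16.1 ± 0.239, Adamts1 at 12.7 ± 0.716, Adamts4 at 10.8 ± 1.16 and Adamtsl2 at 7.18 ± 0.323 FPKM, with no overlap between these 4. Adamtsl2, last in both control groups, had 3 of the genes above it and 4 below in both TGF-β groups.

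The next question was whether loss of RGC-32 altered these genes. None of the 8 differed past the threshold between WT and RGC-32 KO controls or between the TGF-β groups, and the difference in response passed for none. By edgeR, DESeq2 and limma-voom the count was 0 of 8 in each comparison. At an unadjusted p under 0.05 edgeR gave 0 of 8 in each, DESeq2 2, 0 and 0, and limma-voom 0, 1 and 0. Same-numbered libraries of both genotypes deviated together (correlation over 13509 genes 0.49 in controls and 0.25 under TGF-β), which this fit does not use. The intervals given here may thus include spread that a fit paired within each condition could remove. Few genes passed at all: 0.037% of 13509 in controls, 0.0444% under TGF-β and 0% for the difference in response. Rgcc, the targeted gene, was not among them. By edgeR the shares over all genes at an unadjusted p under 0.05 were 6.84%, 11.7% and 2.82%. DESeq2 gave 389 of 10424, 724 of 11775 and 76 of 13937 genes, and limma-voom 921, 1556 and 368 of 13509. The smallest adjusted p among the 8 was 0.725 in controls, 0.459 under TGF-β and 1 for the difference in response (edgeR).

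**Figure D3:**
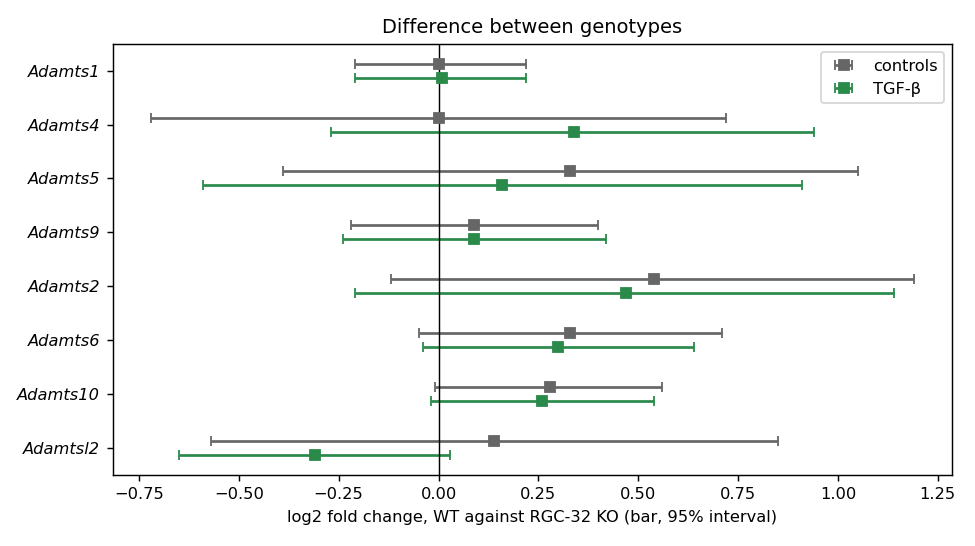
Log2 fold change of WT against RGC-32 KO for each of the 8 genes, in controls and under TGF-β. Squares are estimates and bars 95% intervals. Every interval includes 0. The interval of Adamts1 is narrow, from -0.21 to 0.22, and that of Adamts4 in controls is wide, from -0.72 to 0.72.

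The intervals show what these libraries could still hold. For Adamts1 the log2 difference of WT from KO was 0.00 in controls (95% interval -0.21 to 0.22) and 0.01 under TGF-β (-0.21 to 0.22), the tightest of the 8. For Adamts4 it was 0.00 in controls (-0.72 to 0.72) and 0.34 under TGF-β (-0.27 to 0.94). The bounds in controls lie beyond the fold threshold of 0.6 in both directions.

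Adamts10, Adamts6 and Adamts2 were higher in WT at both conditions, none past the threshold. Adamts10 differed by 0.28 (95% interval -0.01 to 0.56) in controls and by 0.26 (-0.02 to 0.54) under TGF-β on the log2 scale. Adamts6 differed by 0.33 (-0.05 to 0.71) and 0.30 (-0.04 to 0.64). Adamts2 differed by 0.54 (-0.12 to 1.19) and 0.47 (-0.21 to 1.14), the highest estimates of the 8. The genotypes did not overlap for 3 of the 8 genes in controls (Adamts2, Adamts6 and Adamts10) and for 4 of 8 under TGF-β (Adamts4, Adamts6, Adamts10 and Adamtsl2), where 32.8% and 46.3% of all genes did not.

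Adamtsl2 was the 1 gene with a lower estimate in WT under TGF-β, by -0.31 (95% interval -0.65 to 0.03, adjusted p = 0.462, edgeR), while in controls the estimate was 0.14 (-0.57 to 0.85). The difference in response was -0.46 (-1.24 to 0.33). Adamts5 differed by 0.33 (-0.39 to 1.05) in controls and 0.16 (-0.59 to 0.91) under TGF-β, and Adamts9 by 0.09 (-0.22 to 0.40) and 0.09 (-0.24 to 0.42). The other differences in response ran from -0.16 for Adamts5 (-1.20 to 0.87) to 0.34 for Adamts4 (-0.60 to 1.28). That of Adamts10 was -0.02 (-0.42 to 0.38) and that of Adamts6 -0.03 (-0.53 to 0.48).

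The rest of the family, their substrates and their regulators came from lists that were also drawn up with earlier results known. As for the 8 genes, nothing is read from the share of a list past the threshold under TGF-β. Of 18 other ADAMTS and ADAMTS-like genes, Adamts13 and Adamts19 had no row and 16 were tested. In each genotype 6 rose, 2 fell and 8 did not pass, with 7 genes past the threshold in both. Their median was 0.53 (WT) and 0.30 (KO) on the log2 scale. Adamts16 had 4.45 and 2.75 CPM in WT control and 13.5 and 17.3 in WT TGF-β, and rose by 2.10 ± 0.24 (WT) and 1.66 ± 0.24 (KO) on the log2 scale (adjusted p = 0.000722 and 0.00226, edgeR). Adamts8 rose from 14.4 and 15.1 to 58.2 and 58.0 CPM in WT, by 1.97 ± 0.13, and by 2.18 ± 0.13 in KO (adjusted p = 0.000124 and 0.000123, edgeR).

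Adamts12, Adamts18 and Adamtsl3 also rose in both genotypes, Adamts17 passed in WT (1.24, against 0.85 with adjusted p = 0.0923 in KO, edgeR) and Adamts7 in KO (0.62, against 0.55 in WT). These last 2 were not shown to differ between genotypes, since no gene of the list passed for the difference in response. Adamts17 and Adamts18 were low, at 1.13 to 7.07 CPM. The WT call for Adamts17 was lost with DESeq2 (adjusted p = 0.066) and with edgeR on the 4 WT libraries alone (adjusted p = 0.0551), and the KO call for Adamts7 with upper quartile scaling (0.54). Their WT calls were lost without WT control replicate 2 (1.13 and 1.05) or without WT TGF-β replicate 2 (0.81 and 1.17), that of Adamts17 also without WT control replicate 1 (1.34), and that of Adamts18 also without WT TGF-β replicate 1 (1.68). In KO the call for Adamts18 was lost without control replicate 1 (2.06) or 2 (1.20) or TGF-β replicate 2 (0.96), that for Adamts12 without control replicate 2 (1.12) or TGF-β replicate 2 (1.33), and that for Adamts7 without TGF-β replicate 1 (0.51). With the replicate number as a block Adamts18 did not pass (adjusted p = 0.0611 in WT and 0.0545 in KO, edgeR).

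The 2 genes of the family that fell are a protease and an ADAMTS-like protein. Thsd4, which promotes assembly of fibrillin-1 microfibrils, went from 67.8 and 80.7 CPM in WT control to 11.2 and 12 in WT TGF-β, and from 59.1 and 53.0 to 13.4 and 8.92 in KO. That is -2.68 ± 0.17 (WT) and -2.33 ± 0.17 (KO) on the log2 scale (adjusted p = 0.000105 and 0.000201, edgeR). The ADAMTS-like genes Adamtsl2 and Thsd4, both tied to microfibrils, thus lay on opposite sides of 0. Adamts15, a versican-cutting protease, went from 13.9 and 14.5 to 4.92 and 3.90 CPM in WT and from 12.8 and 15 to 5.36 and 3.90 in KO, by -1.68 ± 0.18 and -1.58 ± 0.18 (adjusted p = 0.000599 and 0.00095, edgeR).

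**Figure D4:**
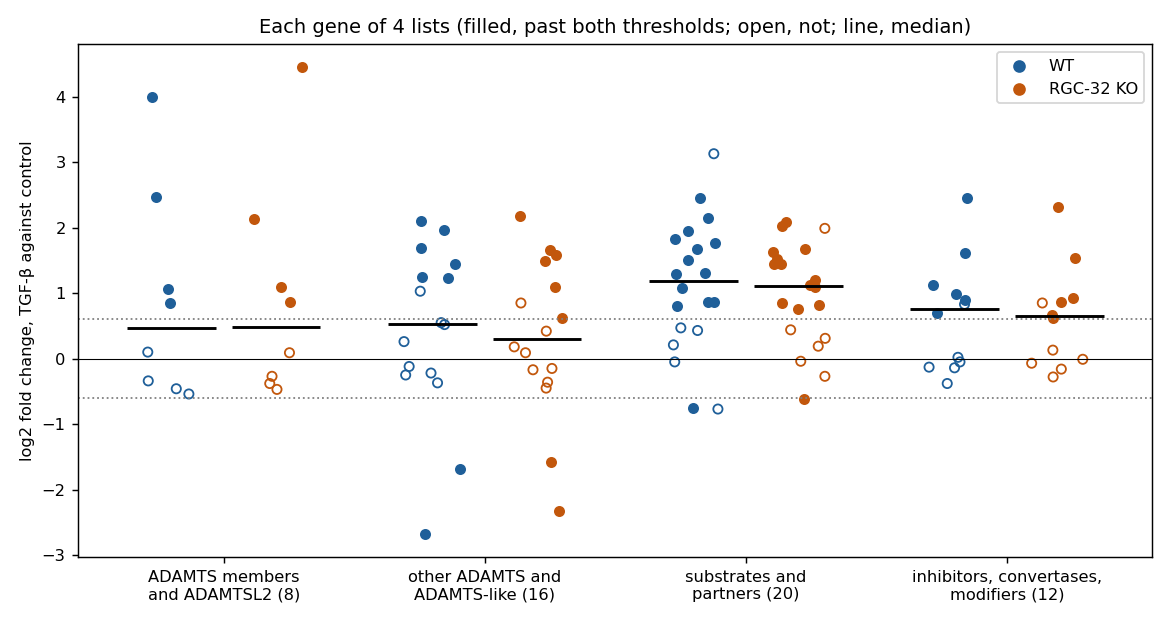
Log2 fold change of TGF-β against control for every tested gene of 4 lists, in WT and RGC-32 KO. Filled points are past the threshold, open points are not, and thick lines are medians. The 20 substrates and partners have medians of 1.19 and 1.11, and the other family members spread from -2.68 to 2.18. The open point at 3.13 is Acan.

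Of the 20 substrates and binding partners 13 rose and 1 fell in WT, the same 14 genes passed in KO, and 6 did not pass in either genotype. Their median was 1.19 (WT) and 1.11 (KO) on the log2 scale. Among fibrillins and latent TGF-β binding proteins 5 of 6 rose in each genotype (Fbn1, Fbn2, Ltbp1, Ltbp2 and Ltbp3, with Ltbp4 at 0.43 in WT and 0.19 in KO). Fbn1, the backbone of microfibrils, had 123 and 140 CPM in WT control and 653 and 792 in WT TGF-β, and 110 and 107 against 415 and 460 in KO. That is a change of 2.46 ± 0.11 (WT) and 2.02 ± 0.11 (KO) on the log2 scale (adjusted p = 6.19e-05 and 7.69e-05, edgeR). Ltbp2 rose by 2.15 ± 0.14 and 2.09 ± 0.14.

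Of the 6 fibrillar procollagen genes, substrates of the ADAMTS2 type of enzyme, 5 rose in each genotype (Col1a1, Col1a2, Col2a1, Col5a1 and Col5a2), while Col3a1 was at 0.47 in WT and 0.44 in KO. Col5a1 rose by 1.67 ± 0.11 and 1.45 ± 0.11, and Col1a1 by 1.31 ± 0.12 and 1.20 ± 0.12. Adamts2 itself was at -0.34 and -0.27. The calls for Col2a1 were lost without WT control replicate 2 (1.55) or WT TGF-β replicate 2 (1.28), and in KO without control replicate 2 (1.17) or TGF-β replicate 2 (1.39).

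The 4 hyalectan genes split. Vcan (versican) rose from 55.8 and 61.6 to 224 and 228 CPM in WT and from 38.1 and 52.3 to 142 and 145 in KO, by 1.95 ± 0.13 and 1.67 ± 0.13 (adjusted p = 0.000122 and 0.000213, edgeR). Bcan (brevican) fell from 50.8 and 69.1 to 33.5 and 37.7 CPM in WT and from 67.8 and 65.0 to 42.9 and 43.2 in KO, by -0.76 ± 0.13 and -0.62 ± 0.13 (adjusted p = 0.00468 and 0.0113, edgeR). The call for Bcan was lost without WT control replicate 2 (-0.53), and in KO without TGF-β replicate 1 (adjusted p = 0.0613) or 2 (adjusted p = 0.0573, edgeR). Ncan (neurocan) was at 0.21 in WT and 0.31 in KO. Acan (aggrecan), named with Ncan after their values were seen, had 64 and 0 reads in untreated WT cells and 150 and 427 after TGF-β, with 66 and 0 in untreated knockout cells and 84 and 161 after TGF-β. In both genotypes control replicate 2 had no read of Acan, and the log2 fold change of 3.13 ± 1.19 in WT did not pass (adjusted p = 0.0779, edgeR). Acan passed without WT control replicate 1 (11.16), where the remaining control had no read. It also passed in WT on log2(FPKM + 1) (1.16, adjusted p = 0.0315, limma). A block that paired control replicate 1 with TGF-β replicate 2, chosen after seeing the data, passed it in both genotypes. The values were then 3.20 in WT and 2.11 in KO (adjusted p = 0.00481 and 0.0452, edgeR).

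Of the 12 regulators 6 rose in both genotypes and 0 fell. Among inhibitors Timp3, which blocks ADAMTS4 and ADAMTS5, rose from 1460 and 1400 to 4230 and 4590 CPM in WT, by 1.62 ± 0.11, and by 1.53 ± 0.11 in KO (adjusted p = 0.000143 and 0.000201, edgeR). Timp1 rose by 2.45 ± 0.48 in WT and 2.31 ± 0.48 in KO, the KO call being lost without control replicate 1 (1.84). The proprotein convertases Furin and Pcsk6, enzymes of the kind that cut the propeptide off ADAMTS proteases, rose by 0.89 ± 0.06 and 0.98 ± 0.18 in WT. Pofut2, which adds fucose to thrombospondin repeats, rose by 0.69 ± 0.07 in WT and 0.67 ± 0.07 in KO, and Lrp1, a receptor that takes up ADAMTS4 and ADAMTS5, by 1.12 ± 0.10 and 0.62 ± 0.09. With upper quartile scaling the KO values of Pofut2 (0.59) and Lrp1 (0.53) were under the fold threshold. For calls lost without 1 library, here and above, a value over 0.6 in size means that only the adjusted p failed. Such fits leave 1 library in a group. The remaining calls lost without 1 library were Vegfc in WT without control replicate 1 (0.56) or TGF-β replicate 1 (0.67), Pofut2 in WT without TGF-β replicate 2 (0.59), and, in KO, Fbn2 without control replicate 2 (0.77), Pcsk6 without control replicate 2 (0.83) or TGF-β replicate 2 (0.71) and Lrp1 without control replicate 1 (0.48) or TGF-β replicate 2 (0.60). Calls gained in WT, for genes named after their values were seen, were those of Adamts3 (1.39), Adamtsl5 (0.77) and Ltbp4 (0.69) without TGF-β replicate 1, and of Col3a1 (0.92) and Pcsk5 (1.40) without control replicate 2.

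No gene of these lists differed past the threshold between genotypes or in its response by edgeR or limma-voom. DESeq2 called 1 of the 48 in controls (Fbn2) and 4 under TGF-β (Fbn1, Fbn2, Vcan and Lrp1), all higher in WT, and 0 for the difference in response. At an unadjusted p under 0.05, 10 of the 20 substrates differed under TGF-β and 8 of 20 in controls, where all genes gave 11.7% and 6.84%. Among the other family members these counts were 3 and 2 of 16, among regulators 1 and 1 of 12, and among the 8 genes 0 and 0. Since the lists were drawn up with earlier results of these data known, nothing is read from these shares either. The nearest to the threshold under TGF-β were Fbn2 at 1.20 ± 0.15 (adjusted p = 0.0721), Fbn1 at 0.72 ± 0.11 (adjusted p = 0.0864) and Lrp1 at 0.61 ± 0.09 (adjusted p = 0.0933), all higher in WT by edgeR. By DESeq2 on these same samples the study reports Fbn1, Fbn2 and Vcan as significantly higher in WT under TGF-β. Their place here, and their DESeq2 calls, are thus not independent evidence. The study also reports real-time PCR under TGF-β, in which Fbn1 and Fbn2 were significantly higher in WT. Vcan was higher in WT there too, but not significantly.

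The genes whose log2 CPM most resembled Adamtsl2 over the 8 libraries were Xbp1, a transcription factor of the unfolded protein response (Pearson r = 0.9984), Btg1, an antiproliferative factor (r = 0.9979), Ripply1 (r = 0.9971), Odc1, the first enzyme of polyamine synthesis (r = 0.9963), and Mfsd2a, a lipid transporter (r = 0.9959). The libraries form a control cluster and a TGF-β cluster, and r over such clusters is a description only. Their log2 fold changes in WT were 0.56, 1.06, 2.55, 0.88 and 2.20, smaller than the 4.0 of Adamtsl2.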

How the data were processed

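Astrocyte RNA from 8 libraries was sequenced unstranded. The authors ran STAR within VIPER, and the counts they deposited are raw whole numbers under gene symbols. The submitters' processing notes name mm10, STAR, Cufflinks and DESeq. The counting program and annotation are not given in the sources used here. The authors also deposited normalized values for 18644 genes, with no unit stated and read as Cufflinks FPKM, and 2 tables of their own TGF-β comparisons (fold changes and p-values), which were not used.

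The main tool was edgeR 4.0.16 under R 4.3.3, beside limma 3.58.1 and DESeq2 1.42.0. Genes were kept by filterByExpr and scaled by TMM, and the quasi-likelihood fit took the 8 libraries as 4 group means without a block. It was tested on simulated data. P-values are two-sided and adjusted by Benjamini-Hochberg over 13509 genes. SE was derived from the test statistic. The table's 21 gene names turned into dates were kept as they are. Replicates differed by more than counting noise (chi-square per degree of freedom 6.14 to 10.1), and depth was 14920561 to 18956038 counts on genes.

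The 8 genes and all lists were chosen with earlier results of these data known. Named are all 8, any list gene past the threshold (in detail those of largest change in WT past it in both genotypes), the targeted and TGF-β response genes, and the 5 genes most like Adamtsl2. Some TGF-β response genes and overlapping genes are not reported here. Alternatives were other tests, filters, scalings, corrections, FPKM with a pseudocount of 1 or 0.1, a replicate block and each library left out.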

Additional observations from a re-analysis of the deposited data

How the results depend on the processing

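The counts of the 8 genes past the threshold between genotypes, and for the difference in response, were 0 under every alternative run. Under TGF-β 4 of 8 were past it in both genotypes, 5 without a fold threshold and 1 with Bonferroni's correction, and 4 under the other alternatives. The 28 list genes past the threshold in each genotype became 10 in WT and 9 in KO with Bonferroni's correction, which is stricter by construction. The other alternatives gave 26 to 31 in WT and 22 to 31 in KO, and leaving out each library in turn gave 24 to 29 and 22 to 26. On log2(FPKM + 1) the calls lost were Adamts17, Adamts18 and Pofut2 in WT, and Adamts7, Adamts18, Fbn2, Ltbp3, Pofut2 and Lrp1 in KO. Acan in WT was gained. Lrp1 in KO was also lost with at least 10 counts in every library. On log2(FPKM + 1) the change of Adamtsl2 was 2.22 in WT and 2.53 in KO, against 4.0 and 4.45, since a pseudocount shrinks low genes. Between genotypes DESeq2 called 7 genes of the whole table higher and 6 lower in WT controls, and 22 and 11 under TGF-β, against 1 and 4, and 3 and 3, by edgeR. No called value changed sign. Near 0, signs moved: the TGF-β value of Adamts1 in KO was below 0 in 3 of 15 alternatives, and that of Adamts2 in KO above 0 in 1.

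Replicate numbers did not pair control with TGF-β libraries, which deviated in opposite directions by number (correlation -0.34 in WT and -0.35 in KO over 13509 genes), while WT and KO libraries of 1 condition deviated together (0.49 and 0.25). With the replicate number as a block 28 and 27 list genes passed. Between genotypes that block gave 0 of the 8 genes at an unadjusted p under 0.05 in controls and 0 under TGF-β (edgeR). Over all 13509 genes it gave 678 and 1220, fewer than the 924 and 1576 without a block. With the crossed pairing, chosen after seeing the data, 31 and 31 passed, and between genotypes 0 of the 8 genes passed, with 3 in controls and 4 under TGF-β at an unadjusted p under 0.05, against 0 and 0 (1499 and 2283 of all 13509 genes, against 924 and 1576). With 2 libraries a group, the genotype intervals without a block leave room for differences of the size of the fold threshold in Adamts2, Adamts4, Adamts5, Adamts6 and Adamtsl2.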
